A study of Mus musculus with 6 samples.

Results

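The genes described here encode the constitutive proteasome: the subunits of its 20S core and 19S regulatory particle, the chaperones that assemble the 19S particle, and the activators that bind the core in its place. They were chosen by symbol (Psma, Psmb, Psmc, Psmd and Psme genes), without Psmb8, Psmb9 and Psmb10, which encode the inducible catalytic subunits. The choice gave 42 of the 54682 rows in the gene table. RNA was sequenced from whole livers of 3 Cd44 KO mice and 3 WT mice, 1 library per mouse. The Cd44 KO mice were homozygous for a targeted allele, B6.Cg-Cd44tm1Hbg/J, which removes the hyaluronan receptor from the whole body and not from a chosen cell type. Both genotypes drank a Lieber-DeCarli diet (5% ethanol, by volume) for 10 days, received a single gavage of 5 g/kg ethanol on day 11, and were killed 9 hours later for liver collection. The comparison is thus between genotypes within ethanol-exposed liver. No mouse without ethanol was analysed here, and the sources used here give neither sex nor age.

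The proteasome degrades proteins that have been tagged with ubiquitin. Its 20S core is a barrel of alpha rings, which gate the entrance, and beta rings, which carry the proteolytic sites. The 19S particle binds ubiquitin chains, removes them and drives the unfolded substrate into the core with a ring of ATPases. When proteasome activity falls short, the transcription factor NRF1 (Nfe2l1) raises transcription of all subunit genes together, and NRF2 (Nfe2l2) can raise some of them under oxidative stress. In liver, chronic ethanol is known to lower proteasome activity, and interferon-gamma replaces the catalytic subunits with inducible ones and raises the PA28 activator.

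Libraries held 15493009 to 19346623 counts. Cd44 itself had 1, 0 and 0 counts in Cd44 KO 1, 2 and 3, against 590, 175 and 568 counts in WT 1, 2 and 3, so no library went against its label (log2 fold change -9.78 ± 0.77 SE, adjusted p = 0.00647, edgeR's quasi-likelihood test). Levels are CPM, counts scaled to the size of the TMM-scaled library, and fold changes are log2 of Cd44 KO over WT with their standard error. In whole liver, fewer cells of a type and less RNA per cell cannot be told apart. The 9 hepatocyte markers in the table summed to 94020 to 116400 CPM in Cd44 KO livers and to 91060 to 103500 CPM in WT livers. Most of this sum was Alb, at 72130 to 88520 CPM in Cd44 KO livers and 63870 to 80850 CPM in WT livers. The mean was higher in Cd44 KO livers for 7 of the 9, and Pck1, a gluconeogenic enzyme, was lower without overlap (-1.17 ± 0.40; adjusted p = 0.301 in edgeR and 0.0465 in DESeq2).

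No proteasome gene differed between genotypes past the threshold. Of the 42 genes, 41 were tested, and 0 passed an adjusted p of 0.05 by edgeR's quasi-likelihood test with Benjamini-Hochberg adjustment over 14145 genes. Among all genes tested 0.0141% passed (2 genes). DESeq2 also called 0 of the 41, where it called 2.15% of all genes, and limma-voom called 0. At an unadjusted p of 0.05 in edgeR, 2 of the 41 genes were lower in Cd44 KO livers, Psma2 and Psmb3. That is 4.88% of the genes, against 7.59% of all genes tested, and 0 were higher, against 5.22% of all genes. The proteasome genes therefore passed this loose criterion no more often than genes at large. The smallest adjusted p among them was 0.363, for Psmb3.

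The differences that were measured were small and mostly of 1 sign. The mean was lower in Cd44 KO livers for 35 of the 41 tested genes (85.4%), against 51.1% of all genes tested. The median log2 fold change was -0.16 over the 41 genes and also -0.16 over the 31 subunits of the 26S particle (20S plus 19S), against -0.01 over all genes. The 31 are those that the symbol rule took in, so the subunits Adrm1 and Sem1 are not among them. The standard error of a single 26S subunit ran from 0.10 to 0.23, with a median of 0.12, so differences of this size were close to the precision of 3 mice per genotype. Subunits of 1 particle are not replicates, and all are read from the same 6 livers. Cd44 KO and WT values did not overlap, with Cd44 KO lower, for 7 of the 41 genes (17.1%), against 9.42% of all genes. The 7 include Psmc3ip, which has low counts and encodes no subunit. No proteasome gene was higher in Cd44 KO livers without overlap, against 8.81% of all genes. For 1 gene alone, an exact two-sided permutation test of 3 mice against 3 reaches p = 0.1 at the lowest.

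**Figure D1:**
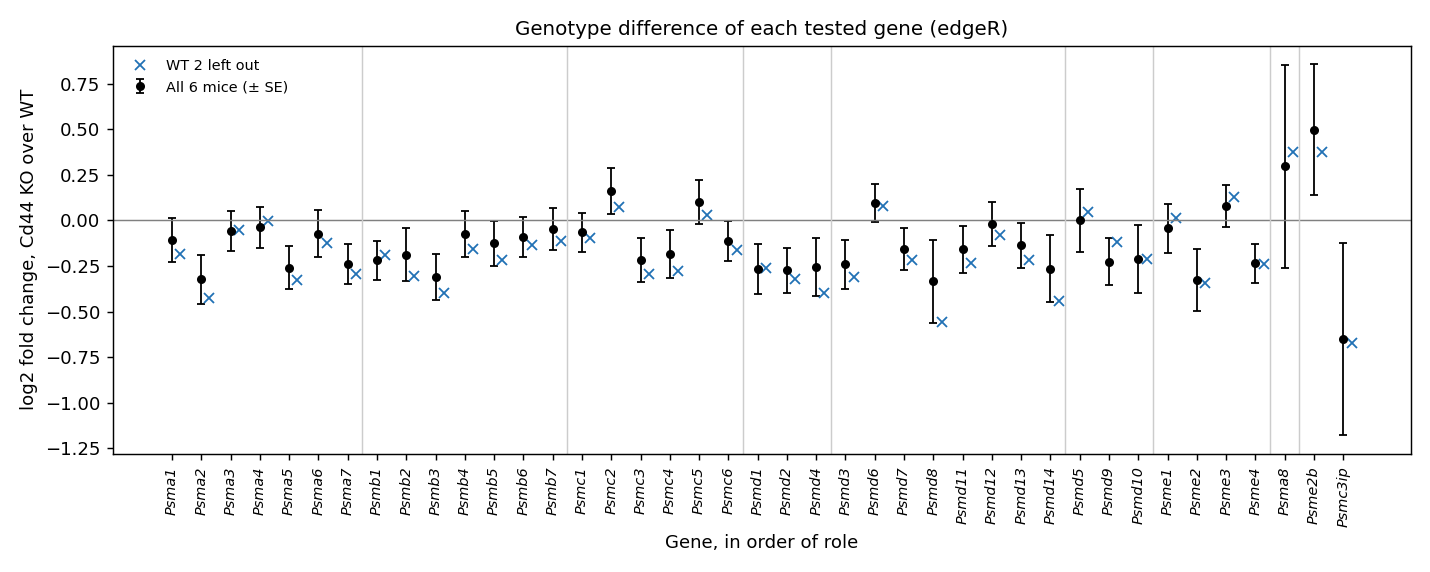
The y axis gives the log2 fold change of Cd44 KO over WT from edgeR for the 41 tested genes along the x axis, ordered as alpha ring, beta ring, ATPase ring, base, lid, assembly chaperones, activators, Psma8, and Psme2b with Psmc3ip, with grey lines between these groups. Black points with bars are the estimates from all 6 mice ± SE and blue crosses are the estimates with WT 2 left out; most points lie below 0, and the median is -0.16.

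Much of the 26S particle shared a coarse pattern, with WT 1 and WT 3 above the Cd44 KO livers. The summed level of the 31 subunits was 2724, 2646 and 2703 CPM in Cd44 KO 1, 2 and 3, against 3193, 2642 and 3116 CPM in WT 1, 2 and 3. The 3 Cd44 KO livers lay close together, WT 1 and WT 3 lay above them, and WT 2 lay just below the lowest Cd44 KO liver, so the groups overlapped. The mean was 2691 ± 40.02 CPM in Cd44 KO livers and 2984 ± 298 CPM in WT livers (SD, n = 3 each). As a share of all counts in named genes, not scaled by TMM, the 42 genes held 0.308%, 0.317% and 0.286% in Cd44 KO 1, 2 and 3, against 0.371%, 0.295% and 0.390% in WT 1, 2 and 3.

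Gene by gene, WT 1 and WT 3 both exceeded every Cd44 KO liver in 23 of the 31 subunits. WT 2 lay within or below the range of the Cd44 KO livers in 24 of 31. Both held together in 18 of 31, and in 19 of the 41 tested genes, against 8.23% of all genes. This pattern was picked after the values were seen and is given as a description. WT 1 was the highest liver for 15 subunits and WT 3 for 11, while WT 2 was the lowest for 12 and the highest for 2, Psma4 and Psmb1. The coefficient of variation was larger among WT than among Cd44 KO livers for 28 of 31 subunits, and for 67.1% of all genes. Its median over the 31 subunits was 4.08% in Cd44 KO livers and 10.8% in WT livers, and over all genes it was 12.8% in Cd44 KO livers and 18.3% in WT livers. By these medians, 26S transcripts varied less between animals than genes at large in both genotypes. The means of the 26S subunits ran from 38.4 to 190 CPM. No comparison with genes of the same level was made, so the part of expression level in this was not tested.

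Summed markers of macrophages and of cycling cells were also higher in WT 1 and WT 3 than in WT 2, and markers of other cells were not all in this order. The 13 markers of Kupffer cells and other macrophages summed to 292, 324 and 288 CPM in Cd44 KO 1, 2 and 3, against 974, 366 and 836 CPM in WT 1, 2 and 3. All 13 had a lower mean in Cd44 KO livers, 10 of them at an unadjusted p under 0.05 (7.59% of all genes) and 0 past the adjusted threshold in edgeR, with 6 called by DESeq2 (2.15% of all genes). The 10 markers of cycling cells summed to 52.1, 68.1 and 55.3 CPM in Cd44 KO 1, 2 and 3, against 120, 87.5 and 148 CPM in WT 1, 2 and 3. All 10 had a lower mean in Cd44 KO livers, 8 at an unadjusted p under 0.05 and 0 past the adjusted threshold in edgeR, with 5 called by DESeq2. No marker of either list was at 0 in all 6 livers. Among WT livers, Pcna was highest in WT 2 and Rrm2 lowest in WT 3, and Ccr2 and Cx3cr1 were lowest in WT 1. Every other marker of both lists was lowest in WT 2 among WT livers. WT 2 was thus the WT liver with the lowest macrophage and cycling sums as well as the lowest 26S sum. The part of these cells in the proteasome differences was not tested. B cell markers went another way, with 20.3, 107 and 228 CPM in Cd44 KO 1, 2 and 3 and 15.5, 257 and 10.2 CPM in WT 1, 2 and 3. WT 2 also had the highest sum of cholangiocyte markers, at 36.8, 32.6 and 28.9 CPM in Cd44 KO 1, 2 and 3 and 54.1, 68.99 and 60.2 CPM in WT 1, 2 and 3. Most of this sum was Spp1, at 25.5, 22.9 and 18.1 CPM in Cd44 KO 1, 2 and 3 and 36.5, 52.7 and 42.3 CPM in WT 1, 2 and 3. Krt19, Krt7 and Tspan8 were also highest in WT 2, while Sox9 was highest in WT 3 and Epcam and Cftr in WT 1. The sum of stellate cell markers was highest in WT 2 too, at 365, 427 and 368 CPM in Cd44 KO 1, 2 and 3 and 415, 498 and 482 CPM in WT 1, 2 and 3. Its largest part was Ecm1, at 150, 148.5 and 114 CPM in WT 1, 2 and 3. Single genes differed: Des, Rgs5 and Acta2 were highest in WT 2, and Lrat, Pdgfrb, Col1a1 and Col3a1 in WT 3. The sum of sinusoidal endothelial markers was lowest in WT 3, at 328, 261 and 237 CPM in Cd44 KO 1, 2 and 3 and 448.5, 283 and 218 CPM in WT 1, 2 and 3.

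Leaving out WT 2, the WT liver with the lowest 26S sum, still gave no call. A larger difference in the summed level without WT 2 follows from that choice, so the values are given as a description. Without WT 2, 10 of the 41 proteasome genes, all 10 of them 26S subunits, were lower at an unadjusted p of 0.05 in edgeR. Among all genes then tested it was 1462 of 14635 (9.99%). None passed the adjusted threshold, against 1.03% of all genes, and the smallest adjusted p was 0.129, for Psmd8. The median log2 fold change over the 26S subunits was then -0.22. Over the 41 genes the median was -0.21 without WT 2, against -0.105 without WT 1 and -0.0975 without WT 3. The count of proteasome genes lower at an unadjusted p of 0.05 in edgeR was 1 without WT 1 and 1 without WT 3.

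The alpha ring of the core, Psma1 to Psma7, had a lower mean in Cd44 KO livers for 7 of 7 genes, with a median log2 fold change of -0.11. Its summed level was 506 ± 23.6 CPM in Cd44 KO livers and 556 ± 32.2 CPM in WT livers (SD, n = 3 each). Psma2 (ENSMUSG00000015671; chr13:14613240-14674236, plus strand, GRCm38) had 52.5, 47.8 and 47.0 CPM in Cd44 KO 1, 2 and 3, against 66.3, 51.4 and 66.7 CPM in WT 1, 2 and 3. WT 2 lay between Cd44 KO 1 and Cd44 KO 2, and the difference was -0.32 ± 0.14 (unadjusted p = 0.0431, adjusted p = 0.374, edgeR). Psma7, whose product also binds other regulatory proteins, had 86.8, 83.3 and 83.6 CPM in Cd44 KO 1, 2 and 3, against 103, 90.8 and 105.5 CPM in WT 1, 2 and 3. Its groups did not overlap (-0.24 ± 0.11, adjusted p = 0.420, edgeR). Psma5 was the other alpha gene without overlap, at 33.9 to 38.0 CPM in Cd44 KO livers and 38.7 to 46.4 CPM in WT livers, with a difference of -0.26 ± 0.12. Psma6, the alpha gene with the highest TPM (counts scaled by gene length and library) by merged exon length, had 75.9, 73.5 and 88.4 CPM in Cd44 KO 1, 2 and 3, against 81.6, 75.8 and 92.5 CPM in WT 1, 2 and 3. The groups were interleaved (-0.07 ± 0.13). The remaining alpha genes, Psma1, Psma3 and Psma4, had log2 fold changes of -0.11, -0.06 and -0.04.

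The beta ring, Psmb1 to Psmb7, also had a lower mean in Cd44 KO livers for 7 of 7 genes, with a median log2 fold change of -0.13. Its summed level was 564 ± 10.3 CPM in Cd44 KO livers and 621 ± 54.2 CPM in WT livers (SD, n = 3 each). The 2 beta genes whose groups did not overlap were structural ones. Psmb3 (ENSMUSG00000069744; chr11:97703399-97713500, plus strand, GRCm38) had 53.6, 52.8 and 55.3 CPM in Cd44 KO 1, 2 and 3, against 68.2, 57.5 and 74.9 CPM in WT 1, 2 and 3. The Cd44 KO livers lay close together, all below WT 2, and the difference was -0.31 ± 0.13 (unadjusted p = 0.0385, adjusted p = 0.363, edgeR). Psmb1 had 92.1, 88.9 and 99.4 CPM in Cd44 KO 1, 2 and 3, against 109.6, 111.9 and 104.8 CPM in WT 1, 2 and 3. Here WT 2 was the highest of all livers, unlike in most subunits (-0.22 ± 0.11, adjusted p = 0.449, edgeR). Psmb2 and Psmb4 had log2 fold changes of -0.19 and -0.07 with overlapping groups.

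The 3 catalytic subunits had smaller estimated differences than Psmb3, and that contrast between genes was not tested. Psmb5, the chymotrypsin-like site (ENSMUSG00000022193; chr14:54614119-54618022, minus strand, GRCm38), had 81.0, 82.1 and 81.3 CPM in Cd44 KO 1, 2 and 3, against 93.4, 76.2 and 97.01 CPM in WT 1, 2 and 3. The Cd44 KO livers were nearly equal and lay between WT 2 and the other WT livers (-0.13 ± 0.12, adjusted p = 0.743, edgeR). Psmb6, the caspase-like site, had 87.8, 83.9 and 87.5 CPM in Cd44 KO 1, 2 and 3, against 94.8, 84.7 and 96.3 CPM in WT 1, 2 and 3. Only WT 2 fell within the Cd44 KO range (-0.09 ± 0.11, adjusted p = 0.802, edgeR). Psmb7, the trypsin-like site, had 74.6, 69.1 and 70.2 CPM in Cd44 KO 1, 2 and 3, against 79.8, 65.7 and 75.3 CPM in WT 1, 2 and 3. WT 2 was again the lowest and WT 1 the highest (-0.05 ± 0.12, adjusted p = 0.915, edgeR). Psmb7 shares 405 exon bases with Nek6 on the opposite strand, a gene with 10559 counts, and since the sources used here do not give the strand setting of the counting, its counts are uncertain.

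The inducible catalytic subunits had overlapping genotypes. Psmb8, which replaces Psmb5, had 29.7, 24.2 and 28.6 CPM in Cd44 KO 1, 2 and 3, against 25.6, 31.6 and 24.8 CPM in WT 1, 2 and 3 (0.01 ± 0.15). Psmb9, which replaces Psmb6, had 22.4, 19.8 and 15.2 CPM in Cd44 KO 1, 2 and 3, against 12.2, 15.3 and 15.9 CPM in WT 1, 2 and 3 (0.40 ± 0.19, adjusted p = 0.416, edgeR). Psmb10, which replaces Psmb7, averaged 36.2 ± 1.83 CPM in Cd44 KO livers and 37.9 ± 4.34 CPM in WT livers (SD, n = 3 each). The count ratio of Psmb9 to Psmb6 was 0.256, 0.236 and 0.174 in Cd44 KO 1, 2 and 3, against 0.129, 0.181 and 0.165 in WT 1, 2 and 3, with Cd44 KO 3 inside the WT range. Its exact two-sided permutation p was 0.2, and 0.6 after adjustment over the 3 ratios. With 3 mice against 3, this permutation test reaches p = 0.1 at the lowest. No ratio could therefore pass the threshold, and the permutation test cannot decide whether the ratios differ between genotypes. The ratio of Psmb8 to Psmb5 was 0.367, 0.295 and 0.352 in Cd44 KO 1, 2 and 3, against 0.274, 0.414 and 0.255 in WT 1, 2 and 3 (exact permutation p = 0.7, adjusted p = 0.9). The ratio of Psmb10 to Psmb7 was 0.473, 0.507 and 0.546 in Cd44 KO 1, 2 and 3, against 0.433, 0.651 and 0.482 in WT 1, 2 and 3 (exact permutation p = 0.9, adjusted p = 0.9). The 3 ratios were added after the data were seen. WT 2 had the highest ratio of Psmb8 to Psmb5 and of Psmb10 to Psmb7. Psmb5 and Psmb7 were lowest in WT 2, which raises these ratios by construction. Psmb8 and Psmb10 were also highest in WT 2.

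**Figure D2:**
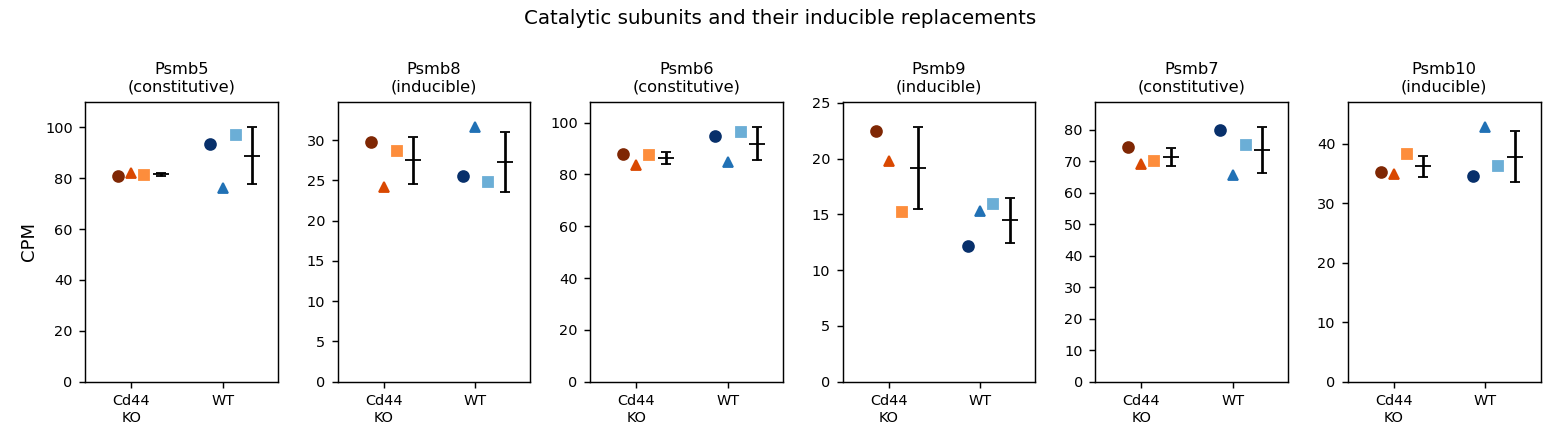
CPM on the y axis of each constitutive catalytic subunit beside the inducible one that replaces it, for Cd44 KO livers (orange and brown) and WT livers (blue); circle, triangle and square are mice 1, 2 and 3 of a genotype, and black bars are mean ± SD (n = 3). All y axes start at 0; the genotypes overlap in all 6 panels, and WT 2 (blue triangle) is the lowest liver for Psmb5 and Psmb7 and the highest for Psmb8 and Psmb10.

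The 19S ATPase ring, Psmc1 to Psmc6, which unfolds substrates, was the part of the particle nearest to equal between genotypes. The summed level of the ATPase ring was 559 ± 12.9 CPM in Cd44 KO livers and 579 ± 55.7 CPM in WT livers (SD, n = 3 each). The mean was lower in Cd44 KO livers for 4 of 6 genes, and the median log2 fold change was -0.09. Psmc3 had 103, 99.1 and 101 CPM in Cd44 KO 1, 2 and 3, against 125, 103 and 125 CPM in WT 1, 2 and 3. WT 2 again lay with the Cd44 KO livers (-0.22 ± 0.12, adjusted p = 0.509, edgeR). Psmc4 had 75.0, 68.6 and 78.9 CPM in Cd44 KO 1, 2 and 3, against 93.6, 72.4 and 87.2 CPM in WT 1, 2 and 3, with a difference of -0.19 ± 0.13. Psmc5, the ATPase with the highest TPM by merged exon length, had 83.3, 86.3 and 91.3 CPM in Cd44 KO 1, 2 and 3, against 85.0, 71.7 and 86.4 CPM in WT 1, 2 and 3. Cd44 KO 3 was the highest and WT 2 the lowest, for a mean higher in Cd44 KO livers (0.10 ± 0.12, adjusted p = 0.792, edgeR). Psmc2 was the other ATPase with a higher mean in Cd44 KO livers (0.16 ± 0.13), and Psmc1 and Psmc6 stood at -0.06 and -0.11.

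The base has non-ATPase subunits that receive ubiquitinated proteins and shuttle factors. The 3 taken in by the symbol rule had the largest median difference of the 26S role groups, -0.27, a ranking that was not tested. Adrm1, a base subunit outside the rule, stood at -0.04 ± 0.16 and is not in this group. Their summed level was 362, 348 and 336 CPM in Cd44 KO 1, 2 and 3, against 473, 382 and 404 CPM in WT 1, 2 and 3, and the groups did not overlap. Psmd2, a docking scaffold for shuttle factors (ENSMUSG00000006998; chr16:20651652-20663414, plus strand, GRCm38), had 174, 169 and 165 CPM in Cd44 KO 1, 2 and 3, against 226, 189 and 199 CPM in WT 1, 2 and 3. All WT livers lay above all Cd44 KO livers (-0.27 ± 0.12, unadjusted p = 0.0568, adjusted p = 0.409, edgeR). Psmd1, a scaffold of the base, had 107.5, 99.5 and 98.2 CPM in Cd44 KO 1, 2 and 3, against 140.4, 122 and 105.2 CPM in WT 1, 2 and 3. WT 3 fell inside the Cd44 KO range and WT 2 did not (-0.27 ± 0.14, adjusted p = 0.465, edgeR). Psmd4, a ubiquitin receptor, had 80.3, 79.7 and 72.5 CPM in Cd44 KO 1, 2 and 3, against 105.9, 71.9 and 99.7 CPM in WT 1, 2 and 3. WT 2 was the lowest liver and the other WT livers the highest (-0.26 ± 0.16, adjusted p = 0.561, edgeR).

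The lid, 8 genes including the deubiquitinase that removes ubiquitin chains, had a lower mean in Cd44 KO livers for 7 of 8 genes and a median log2 fold change of -0.16. Its summed level was 714 ± 10.9 CPM in Cd44 KO livers and 808 ± 122 CPM in WT livers (SD, n = 3 each), and WT 2, at 666 CPM, lay below all Cd44 KO livers. Psmd8, a lid subunit that, in yeast, joins the lid last (ENSMUSG00000030591; chr7:29174188-29180701, minus strand, GRCm38), had 172, 167.5 and 166 CPM in Cd44 KO 1, 2 and 3, against 221.3, 139.0 and 277 CPM in WT 1, 2 and 3. The Cd44 KO livers lay close together, and the WT livers lay on both sides of them. The difference was -0.33 ± 0.23 (adjusted p = 0.610, edgeR), and without WT 2 it was -0.56 (adjusted p = 0.129). Psmd14, the deubiquitinase of the lid, had 36.0, 32.6 and 36.1 CPM in Cd44 KO 1, 2 and 3, against 46.7, 30.2 and 48.8 CPM in WT 1, 2 and 3. As for Psmd4, WT 2 was the lowest liver and the other WT livers the highest (-0.27 ± 0.19, adjusted p = 0.616, edgeR; -0.44 without WT 2). Psmd3, a structural lid subunit, had 107, 111 and 93.0 CPM in Cd44 KO 1, 2 and 3, against 139.1, 109.4 and 119.6 CPM in WT 1, 2 and 3, with a difference of -0.24 ± 0.14. Psmd6 was the lid gene with a higher mean in Cd44 KO livers (0.10 ± 0.10), and Psmd7, Psmd11, Psmd12 and Psmd13 ran from -0.16 to -0.02.

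**Figure D3:**
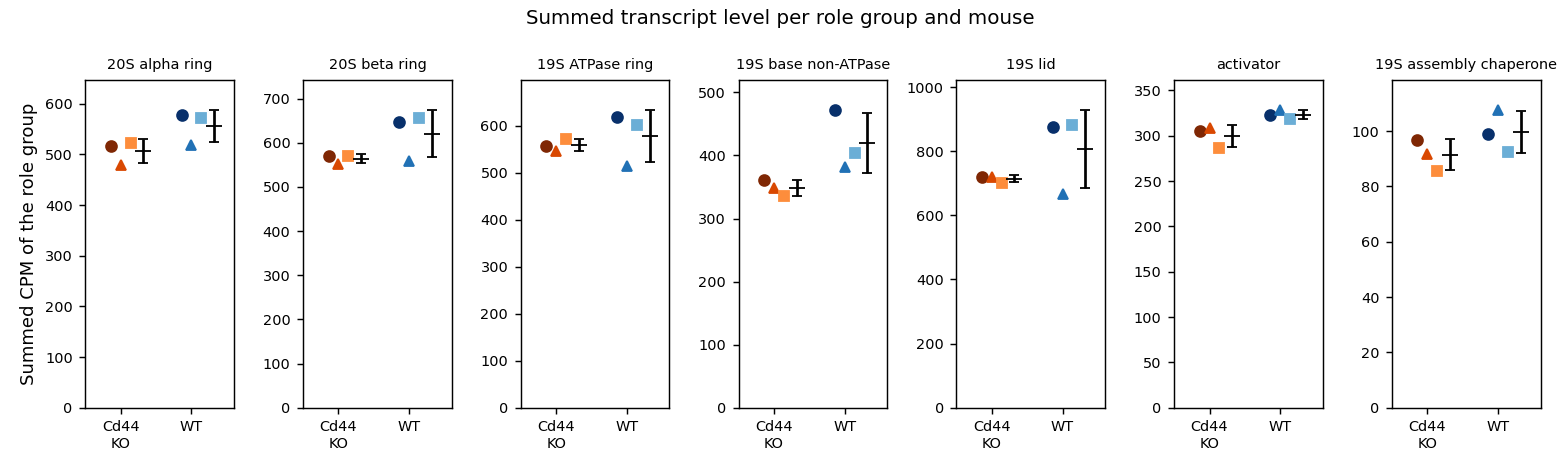
Summed CPM on the y axis of the genes of each role group, for Cd44 KO livers (orange and brown) and WT livers (blue); circle, triangle and square are mice 1, 2 and 3 of a genotype, and black bars are mean ± SD (n = 3). All y axes start at 0. The genotypes do not overlap for the base non-ATPase group and the activators (summed without Psme2b). The Cd44 KO SD is the smaller one in every panel except the activators.

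The 3 chaperones that assemble the 19S base had low levels and no common order of livers. Psmd9 had 40.4, 42.1 and 39.1 CPM in Cd44 KO 1, 2 and 3, against 40.7, 53.6 and 48.0 CPM in WT 1, 2 and 3, and here WT 2 was the highest liver (-0.23 ± 0.13, adjusted p = 0.523, edgeR). Psmd10, also known as gankyrin, an oncoprotein in liver cancer, had 9.56, 10.8 and 8.16 CPM in Cd44 KO 1, 2 and 3, against 9.46, 10.8 and 12.7 CPM in WT 1, 2 and 3 (-0.21 ± 0.19, adjusted p = 0.703, edgeR). The groups overlapped for both genes. Psmd5 averaged 41.4 CPM in Cd44 KO livers and 41.4 CPM in WT livers.

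Of the activators, which open the core without ubiquitin or ATP, Psme4 was the one whose groups did not overlap. Psme4 (ENSMUSG00000040850; chr11:30771726-30880361, plus strand, GRCm38) encodes PA200, a nuclear activator, and had 113, 108 and 104 CPM in Cd44 KO 1, 2 and 3, against 134, 125 and 123 CPM in WT 1, 2 and 3. WT 2 lay with the other WT livers (-0.24 ± 0.11, unadjusted p = 0.0610, adjusted p = 0.417, edgeR; -0.24 without WT 2). Psme3, the nuclear PA28 gamma, had 93.3, 90.4 and 91.5 CPM in Cd44 KO 1, 2 and 3, against 92.0, 91.0 and 77.1 CPM in WT 1, 2 and 3 (0.08 ± 0.12). Psme1, the alpha chain of the interferon-inducible PA28 ring, had 70.6, 76.1 and 69.7 CPM in Cd44 KO 1, 2 and 3, against 62.0, 79.2 and 81.7 CPM in WT 1, 2 and 3. The WT livers lay on both sides of the Cd44 KO livers (-0.04 ± 0.13, adjusted p = 0.935, edgeR). Summed over the 4 activators the level was 305, 308 and 286 CPM in Cd44 KO 1, 2 and 3, against 322, 329 and 318 CPM in WT 1, 2 and 3, without overlap. This sum takes Psme2 without its near-identical copy Psme2b, so the size of the gap between the groups is uncertain.

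Psme2, the beta chain of the PA28 ring, cannot be read apart from a copy. Psme2 had 27.95, 33.9 and 21.3 CPM in Cd44 KO 1, 2 and 3, against 34.5, 33.5 and 36.4 CPM in WT 1, 2 and 3 (-0.33 ± 0.17, adjusted p = 0.486, edgeR). The annotated gene Psme2b had 29.7, 13.8 and 28.9 CPM in Cd44 KO 1, 2 and 3, against 12.8, 13.7 and 24.5 CPM in WT 1, 2 and 3 (0.50 ± 0.36, adjusted p = 0.633, edgeR). The Cd44 KO liver with the most Psme2, Cd44 KO 2, had the least Psme2b. Their transcripts match over 794 bases at 99.4% identity, 5 of 717 coding bases differ, and 0 of 239 encoded residues differ. Reads of this stretch that cover none of the differing bases fit both genes, and the sources used here do not say how the authors treated such reads. The stretch with 3 of the 5 differences is shown because reads across such bases separate the genes. It begins at coding position 489, counted from 1 at the first base of the start codon. Capitals mark the differing bases, C489T, C519T and C543T, with the Psme2 base first (GRCm38; Psme2 chr14:55588043-55588241, minus strand, across an intron; Psme2b chr11:48945570-48945630, minus strand).
Psme2: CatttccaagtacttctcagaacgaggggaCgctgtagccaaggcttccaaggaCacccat
Psme2b: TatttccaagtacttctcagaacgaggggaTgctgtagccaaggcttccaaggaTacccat

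With the counts of both genes summed, the level was 57.6, 47.7 and 50.3 CPM in Cd44 KO 1, 2 and 3, against 47.4, 47.2 and 60.9 CPM in WT 1, 2 and 3. The log2 fold change was then -0.00 ± 0.14, so the opposite signs of the separate rows were gone in the sum. This sum was added after the data were seen. A second large copy was that of Psma3: the processed pseudogene Gm13835 matches it without a mismatch over 665 bases and held 54.6% as many counts as Psma3. Psma3 plus Gm13835 gave 109.5, 101 and 114 CPM in Cd44 KO 1, 2 and 3, against 119.9, 113 and 115 CPM in WT 1, 2 and 3 (-0.10 ± 0.11). Smaller copies, each at under 9% of the member's counts, were found for Psma4, Psma5, Psmb3, Psmb5, Psmc1, Psmd2 and Psmd11. Psmc3 and Psmd13 share 215 and 342 exon bases with Slc39a13 and Sirt3 on the opposite strand.

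The tissue-restricted core subunits were near or at 0. Psma8, the alpha subunit of testis, had 17, 14 and 28 counts in Cd44 KO 1, 2 and 3, against 7, 17 and 29 counts in WT 1, 2 and 3 (0.30 ± 0.56). Psmb11, the beta subunit of the thymic cortex, had 0 counts in all 6 libraries, which allows a level of up to 0.150 to 0.206 CPM per library (3 counts), and it was not tested. Psmc3ip, which the symbol rule took in though it encodes a meiotic recombination factor and no subunit, had 2, 12 and 8 counts in Cd44 KO 1, 2 and 3, against 14, 10 and 13 counts in WT 1, 2 and 3. In CPM its groups did not overlap, at counts too low for a narrow estimate (-0.65 ± 0.53), and 385 of its 1818 exon bases overlap Mlx, which had 3147 counts. Of the 7 genes without overlap, 5 were 26S subunits (Psma5, Psma7, Psmb1, Psmb3 and Psmd2), and the others were Psme4 and Psmc3ip.

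Levels per length allow subunits to be set beside each other. In TPM (lengths from all annotated exons merged, mean of 6 mice), the 31 26S subunits had a median of 77.6 TPM, from 35.3 TPM for Psmd14 to 245 TPM for Psmb5. Psmb4, Psma6, Psmd8 and Psmc5 followed Psmb5 at 178, 170, 162 and 155 TPM. The assembly chaperones Psmd5, Psmd9 and Psmd10 lay at 14.7 to 18.1 TPM, below every 26S subunit, and the activators at 36.3 to 85.4 TPM. Subunits that stand in equal number in the particle thus had unequal transcript levels per length. The order depends on the length used: with the longest transcript of each gene, the median of the 26S subunits was 108 TPM and Psmb4, not Psmb5, was highest. Psma4, not Psma6, was then the highest alpha gene, and Psmc1, not Psmc5, the highest ATPase.

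**Figure D4:**
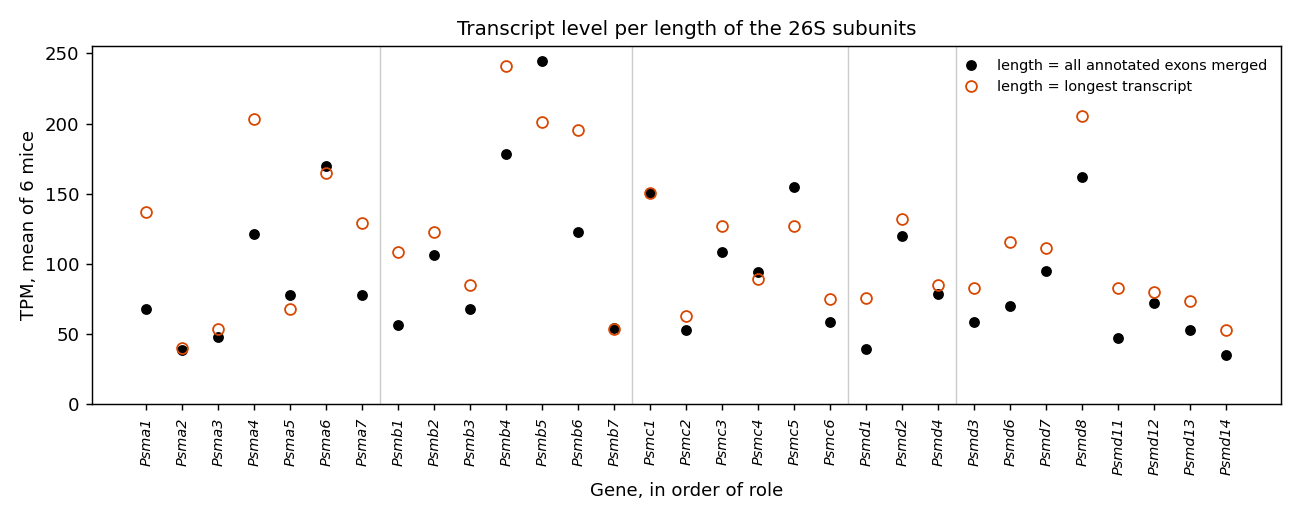
TPM on the y axis, averaged over the 6 mice, for each 26S subunit along the x axis in the order alpha ring, beta ring, ATPase ring, base and lid, with grey lines between them. Filled points use the merged length of all annotated exons and open circles the longest transcript; the filled points run from 35.3 TPM for Psmd14 to 245 TPM for Psmb5.

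Promoter sequence was examined because many 26S subunits shared a pattern, with WT 1 and WT 3 above every Cd44 KO liver. RefSeq windows (GRCm38.p6) from 250 bases before to 50 bases after the transcription start were found for 35 of the 42 genes. TGACNNNGC, the core letters of the antioxidant response element that NRF1 and NRF2 recognise, was searched on both strands. It was in a window of 6 of 35 genes (17.1%), against 13.99% of 27025 genes: Psmb5, Psmb6, Psmc6, Psmd9, Psmd12 and Psme4. CCAAT, the letters bound by NF-Y, was in 14 of 35 genes, against 41.1% of all genes. No window with the first motif also held the second. The matches of Psmb5, Psmb6 and Psmd9 are shown as the 3 nearest to and wholly before the start, 47 to 39, 9 to 1 and 31 to 23 bases before it, with the match in capitals (Psmb5 chr14:54617996-54618082, minus strand; Psmb6 chr11:70525308-70525356, plus strand; Psmd9 chr5:123228119-123228189, plus strand). A match of letters is a description and does not show that a factor binds.
Psmb5: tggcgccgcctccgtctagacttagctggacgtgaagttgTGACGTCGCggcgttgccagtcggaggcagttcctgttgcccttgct
Psmb6: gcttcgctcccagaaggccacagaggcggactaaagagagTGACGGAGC
Psmd9: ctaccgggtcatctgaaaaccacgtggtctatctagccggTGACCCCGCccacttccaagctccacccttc

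The regulators of subunit transcription did not differ past the threshold either. Of 11 such genes, 0 passed an unadjusted p of 0.05, with 7 higher and 4 lower means in Cd44 KO livers. Nfe2l1 had 176.5, 192 and 176 CPM in Cd44 KO 1, 2 and 3, against 150.5, 142.5 and 186 CPM in WT 1, 2 and 3, so its mean was higher in Cd44 KO livers, opposite in sign to most 26S subunits (0.18 ± 0.14, adjusted p = 0.648, edgeR). Ddi2, the protease that activates NRF1, had a log2 fold change of 0.20 ± 0.16. Nfe2l2 averaged 96.8 ± 17.4 CPM in Cd44 KO livers and 96.1 ± 11.2 CPM in WT livers (SD, n = 3 each).

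Assembly factors and subunits outside the symbol rule were mixed. Among 10 further assembly chaperones and inhibitors, 1 was higher in Cd44 KO livers at an unadjusted p of 0.05, against 5.22% of all genes: Psmg2, a chaperone of the alpha ring, with 22.4, 20.6 and 18.5 CPM in Cd44 KO 1, 2 and 3, against 12.7, 14.7 and 13.9 CPM in WT 1, 2 and 3. Its groups did not overlap, as for 8.81% of all genes in this direction (0.58 ± 0.14, unadjusted p = 0.00313, adjusted p = 0.217, edgeR). Pomp, which matures the beta ring, had a log2 fold change of 0.04 ± 0.12, and the inhibitor Psmf1 had -0.14 ± 0.26. Among 5 further subunits and deubiquitinases, 4 had a lower mean in Cd44 KO livers and 0 passed an unadjusted p of 0.05, with Adrm1, a ubiquitin receptor, at -0.04 ± 0.16 and Usp14, a deubiquitinase, at -0.23 ± 0.18.

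Among 10 shuttle factors and p97 components, which bring ubiquitinated proteins to the proteasome, the mean was higher in Cd44 KO livers for 6. Of these 10 genes, 1 was higher at an unadjusted p of 0.05, against 5.22% of all genes: Sqstm1, the autophagy receptor p62, with 1816, 2249 and 1964 CPM in Cd44 KO 1, 2 and 3, against 1785, 1079 and 889.9 CPM in WT 1, 2 and 3. WT 1 lay just below Cd44 KO 1, and the other WT livers far below (0.68 ± 0.27, unadjusted p = 0.0361, adjusted p = 0.355, edgeR). Vcp, the p97 segregase, had a log2 fold change of -0.23 ± 0.16. Of the 2 ubiquitin-activating enzymes, Uba1 had a lower mean in Cd44 KO livers without overlap (-0.15 ± 0.12) and Uba6 a higher one (0.23 ± 0.20).

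The 10 interferon-gamma targets of antigen processing had a median log2 fold change of 0.09, and none passed the adjusted threshold. Tap1, which carries peptides into the endoplasmic reticulum, ran from 41.8 to 48.2 CPM in Cd44 KO livers, against 21.9 to 37.0 CPM in WT livers. Its groups did not overlap (0.58 ± 0.19, unadjusted p = 0.0160, adjusted p = 0.281, edgeR).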

How the data were processed

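Each library was made from poly(A) RNA of 1 liver. The authors deposited raw counts of reads per gene (Ensembl IDs), not normalised. Per the submitters' processing notes, the tools were featureCounts 1.5.0-p3, StringTie 1.3.3b and HISAT2 2.0.5, with GRCm38.p6 as build. The sources used here do not give the annotation release, the strand setting or how multi-mapping reads were counted. Of 54682 rows, 54495 matched GENCODE M21 of the same build. Another 150 rows were gene models with no name, held 0.273% to 0.509% of a library and were left out. Total counts were 15493009 to 19346623 per library. A count of 0 allows up to 3 counts, counting error only.

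Genotype, taken from the labels, was tested in R 4.3.3 with edgeR 4.0.16 (filterByExpr, TMM, robust quasi-likelihood F test, Benjamini-Hochberg adjustment over 14145 genes, threshold 0.05). The SE was computed as log2 fold change over the square root of F, and the common biological coefficient of variation was 0.237. The labels name separate mice, so mice are the replicates. Alternatives were DESeq2 1.42.0, limma 3.58.1 (voom), RLE scaling, other low-count filters, protein-coding genes alone, the older quasi-likelihood fit, mouse number as a block, and leaving out each library. Mouse numbers did not pair the samples (correlations of deviations -0.014, -0.011 and -0.008). TPM used GENCODE exon lengths; copies (at least 95% identity over 300 bases) were found with BLAST 2.17.0 and overlaps with bedtools 2.31.1; promoter windows were RefSeq's.

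Members and lists were chosen with earlier results of these data known. Genes were named by rule: per role, the 2 of smallest p and the highest by TPM; a fixed set of 12 genes; at most 4 per list by smallest p, plus Psmb8, Psmb9, Psmb10, Nfe2l1, Nfe2l2, Psmf1 and Pomp. Other genes were named after their values were seen. Some members of these lists are not reported here.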

Additional observations from a re-analysis of the deposited data

How the results depend on the processing

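The count of proteasome genes past an adjusted p of 0.05 was 0 under every alternative run. The count lower in Cd44 KO livers at an unadjusted p of 0.05, 2 with all mice, was 0 with DESeq2 and 1 with limma-voom, and ran from 0 to 10 on leaving out 1 mouse: 10 without WT 2, 0 without Cd44 KO 1 or Cd44 KO 3, and 1 without Cd44 KO 2, WT 1 or WT 3. The count higher ran from 0 to 1, with 1 without Cd44 KO 2 or WT 3. The median log2 fold change ran from -0.21 to -0.10 on leaving out 1 mouse. With mouse number as a replicate block, which the check of the numbers did not call for, 0 genes were lower at an unadjusted p of 0.05 and the median was -0.15. The count of proteasome genes whose genotypes did not overlap, 7 with TMM scaling, was 9 with RLE scaling. The median TPM of the 26S subunits, 77.6, became 108.3 with the longest transcript. Of the log2 fold changes of 26 named members under 15 alternatives, 382 kept their sign and their side of the threshold and 7 changed sign: Psma6 to 0.0099 without WT 3 (-0.15 to 0.0099 on leaving out 1 mouse), Psmb7 to 0.0168 without WT 1 (-0.11 to 0.0168), Psme1 to 0.0154 without WT 2 and 0.0328 without WT 3 (-0.16 to 0.0328), Psma8 to -0.13 without Cd44 KO 3 and -0.093 without WT 1 (-0.13 to 0.74), and Psme2b to -0.00014 with copies summed, by construction. Otherwise the cause was not tested. The 3 mice per genotype and standard errors of about 0.12 on the log2 scale limit what can be seen in a subunit.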
